A study of Mus musculus with 8 samples.

Results

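Cdk20, Zfp367, Fastkd3 and Tpmt are 4 protein-coding genes of mouse chromosome 13. They were described with all 8 of their probes, each kept separate, out of 25697 probes and 16593 named genes on the array. The genes were chosen by the difference in their signal between Bgn_KO and WT mice on these same arrays, so that difference is given here as a description, with no test. The array measured RNA of the hypothalamus of male mice aged 13 weeks on a C57BL/6 background, all kept on the same diet. In 4 mice the gene Bgn, which encodes the matrix proteoglycan biglycan, was disrupted (Bgn_KO), and 4 were wild type (WT), with 1 array per labelled animal. The labels do not say how Bgn was disrupted, in which cells, or whether the 2 groups were littermates.

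Cdk20 encodes a kinase related to the cyclin-dependent kinases, which acts at the primary cilium and in hedgehog signalling. Zfp367 encodes a zinc finger transcription factor. Fastkd3 belongs to the FASTK family, whose proteins bind RNA in mitochondria and govern how mitochondrial transcripts are processed, kept stable and translated. Tpmt encodes thiopurine S-methyltransferase, a cytosolic enzyme that passes a methyl group from S-adenosylmethionine to sulphur-containing ring compounds, thiopurine drugs among them.

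The sequences just before their transcription starts are shown because 3 of these genes stand near each other in gene order and the 4 were picked by 1 contrast. Each is the 250 bases before the start in RefSeq, build GRCm38.p6, read on the strand of the gene. Capitals mark matches, on either strand, to any of the motifs spelled out after the sequences, and no match overlaps another.
Cdk20, chr13:64432303-64432552, plus strand: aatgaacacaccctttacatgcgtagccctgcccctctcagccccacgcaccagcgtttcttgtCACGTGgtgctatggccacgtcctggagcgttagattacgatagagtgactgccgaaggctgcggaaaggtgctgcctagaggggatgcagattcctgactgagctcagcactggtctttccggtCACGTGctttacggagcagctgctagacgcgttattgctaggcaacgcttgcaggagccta
Zfp367, chr13:64153200-64153449, minus strand: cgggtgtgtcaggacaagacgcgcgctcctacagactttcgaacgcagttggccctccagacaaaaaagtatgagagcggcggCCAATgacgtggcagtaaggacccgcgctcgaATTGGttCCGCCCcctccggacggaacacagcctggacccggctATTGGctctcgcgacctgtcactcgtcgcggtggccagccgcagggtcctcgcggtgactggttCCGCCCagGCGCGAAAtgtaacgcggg
Fastkd3, chr13:68581960-68582209, plus strand: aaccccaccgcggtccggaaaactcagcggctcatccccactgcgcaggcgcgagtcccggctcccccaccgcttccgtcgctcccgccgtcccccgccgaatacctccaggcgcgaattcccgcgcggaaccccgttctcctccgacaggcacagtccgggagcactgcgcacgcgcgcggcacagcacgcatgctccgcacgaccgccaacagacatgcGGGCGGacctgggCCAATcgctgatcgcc
Tpmt, chr13:47043218-47043467, minus strand: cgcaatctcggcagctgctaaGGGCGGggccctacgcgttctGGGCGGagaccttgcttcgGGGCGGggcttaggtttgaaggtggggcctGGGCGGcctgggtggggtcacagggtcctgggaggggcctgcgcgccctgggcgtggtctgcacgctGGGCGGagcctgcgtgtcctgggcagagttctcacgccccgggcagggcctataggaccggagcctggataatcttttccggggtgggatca
The windows had different motifs. The window of Cdk20 held 2 copies of the E-box CACGTG, a motif found in 6.02% of the 32851 RefSeq windows of this length. It held none of the other motifs searched. The GC box GGGCGG, which occurs in 32.7% of windows, was found 5 times before Tpmt, 2 times before Zfp367 and 1 time before Fastkd3. The CCAAT box, with those letters, which occurs in 33.8% of windows, was found 3 times before Zfp367 and 1 time before Fastkd3. The E2F site was searched in 2 forms. The form TTTCGCGC, found in 0.256% of windows, was present 1 time before Zfp367, and the form TTTCCCGC, found in 0.895% of windows, in none of the 4. GC content was 56.4% for Cdk20, 64.0% for Zfp367, 71.2% for Fastkd3 and 69.2% for Tpmt, against a median of 52.4% over all windows. Zfp367 has 2 starts in RefSeq, and the counts above are for the one shown, which lies further upstream. Before its other start were 4 GC boxes, 0 CCAAT boxes and 0 E2F sites of either form, with a GC content of 74.0%. The start of Mtrr, on the minus strand, lies 41 or 106 bases before that of Fastkd3, so these genes run in opposite directions from a shared stretch. A match is a description of these letters only.

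On each array 13820 to 14502 probes exceeded background, taken as a detection p-value under 0.05, and the median deposited signal was 180 to 225. Normalized log2 signals of the tested probes correlated between arrays with r from 0.976 to 0.990. Precision is limited by the small number of arrays, with a standard error of 0.13 for the median probe. Bgn itself did not separate the labels fully. Its probe ILMN_2964042 read 8.93, 9.0, 8.97 and 8.78 on Bgn_KO replicates 1 to 4 and 8.85, 10.43, 10.12 and 9.51 on WT replicates 1 to 4. The difference of -0.81 (SE 0.29) did not pass (limma adjusted p = 0.389; exact permutation, two-sided, p = 0.114, where 4 against 4 arrays allow no p below 0.0286). The array labelled WT replicate 1 thus lay in the range of the Bgn_KO arrays, although with each array scaled to its median it was at 8.93, above their highest value of 8.92, and the difference was -0.90 (exact permutation, two-sided, p = 0.0286, the smallest possible). Whether the probe lies in the disrupted part of the gene is not known here. Of 17 hypothalamic markers 16 had a probe and 12 were detected, with Hcrt, Pmch, Avp, Oxt and Pomc among them and Crh, Otp, Rax and Sim1 not above background on enough arrays. The 12 summed to 71499 to 91764 in Bgn_KO and 89122 to 93994 in WT, with 11 lower and 0 past the test (limma, 2 at an unadjusted p under 0.05). Cortical markers (4 of 6 on the array detected) summed to a signal of 8068 on Bgn_KO replicate 4 and 1180 to 1623 on the others, and skeletal muscle markers (5 of 10 detected) to 44376 on WT replicate 4 and 525 to 887 on the others. The 8 oligodendrocyte markers summed to 49553 to 55839 in Bgn_KO and 58344 to 72188 in WT, with 8 of 8 lower and 0 past the test over all probes (limma, 6 of the 8 at an unadjusted p under 0.05). Sums of the other lists overlapped between the groups: meninges (7 of 9 on the array detected, Col1a1 and Col1a2 not) 4142 to 11968 in Bgn_KO and 4944 to 14299 in WT, choroid plexus (4 of 6) 1865 to 2624 and 1884 to 2540, microglia (7 of 7, 6 lower, 3 at an unadjusted p under 0.05) 2120 to 2895 and 2467 to 3183, and astrocytes (7 of 7) 35998 to 38019 and 36066 to 40222. Their part in the results on the 4 genes was not tested. In such bulk tissue, fewer cells of a type and less RNA per cell cannot be told apart.

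Of the 8 probes 5 had groups that did not overlap, 1 higher in Bgn_KO and 4 lower, against 6.15% of all 14190 tested probes (3.2% higher and 2.95% lower). The 4 genes were chosen for such differences, so nothing is read from that count. Cdk20 was low on one probe in Bgn_KO and differed less on its other 3. The deposited signal of ILMN_2942930 was 209, 174, 184 and 200 on Bgn_KO replicates 1 to 4 and 468, 271, 421 and 374 on WT replicates 1 to 4. All Bgn_KO values were below all WT values, and WT replicate 2 was the lowest of its group. After background correction and quantile normalization the log2 signal was 5.64 ± 0.28 in Bgn_KO and 7.66 ± 0.41 in WT (SD, n = 4 each), a difference of -2.02 (SE 0.21), or 4.07-fold lower. It exceeded background on all 8 arrays, though the detection p-value reached 0.0439 on Bgn_KO replicate 4. The brighter probe ILMN_1238557 was also lower in Bgn_KO without overlap, with a signal of 611 to 770 against 861 to 1175, but by less: its log2 signal was 9.15 ± 0.08 against 9.63 ± 0.05 (SD, n = 4 each), a difference of -0.47 (SE 0.08).

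The other Cdk20 probes pointed the opposite way and their groups overlapped. ILMN_2627072, about as bright, read 653 to 731 in Bgn_KO and 575 to 841 in WT, with a log2 difference of 0.22 (SE 0.17). The dim ILMN_1238571 read 181 to 233 against 190 to 214, with a difference of 0.42 (SE 0.19), and WT replicate 4 was not above background (detection p-value 0.0777). The 4 differences of this gene thus spanned 2.44 on the log2 scale. Among the 2583 genes with more than 1 tested probe the median span was 0.15, and 27 (1.05%) spanned more than 1. Probe sequences were not analysed here, so for every probe described a difference in RNA level and a difference in how the transcript binds the probe cannot be told apart.

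The 2 probes of Zfp367 were both lower in Bgn_KO, but by unlike amounts. ILMN_1257178 had a deposited signal of 209, 179, 190 and 192 on the Bgn_KO arrays and 398, 271, 361 and 383 on the WT arrays. The groups did not overlap, and WT replicate 2 was again the lowest WT array. Its log2 signal was 5.68 ± 0.39 in Bgn_KO and 7.49 ± 0.31 in WT (SD, n = 4 each), a difference of -1.81 (SE 0.21). On Bgn_KO replicate 4 it was not above background (detection p-value 0.0865), so the level there is only a bound. In its place the higher of the probe's own signal and the lowest signal above background on that array was used. Every bound here was made so, and on ILMN_1257178 Zfp367 was at least 3.39-fold lower in Bgn_KO. Such a bound holds only under the main background correction and offset. Without background correction this probe differed by -0.67, and with an offset of 50 by -1.32. ILMN_2897424 was dim in both groups, at 168 to 243 in Bgn_KO and 204 to 238 in WT, which leaves little room for a fall. Its groups overlapped, with a difference of -0.30 (SE 0.26), and the differences of the 2 probes were 1.5 apart.

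Fastkd3, with 1 probe (ILMN_2696360), differed most among the 8 probes. Its deposited signal was 199, 182, 177 and 214 on the Bgn_KO arrays and 637, 341, 656 and 605 on the WT arrays. The Bgn_KO arrays lay close together near background (detection p-value 0.00627 to 0.0226), and on the WT side replicate 2 stood lower than the other 3. The log2 signal was 5.68 ± 0.09 in Bgn_KO and 8.47 ± 0.52 in WT (SD, n = 4 each), a difference of -2.79 (SE 0.22), or 6.91-fold lower in Bgn_KO. The gap between the highest Bgn_KO array and the lowest WT array was 1.94, the widest of the 8 probes. With WT replicate 2 left out the difference was -3.05.

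Tpmt, also with 1 probe (ILMN_2800466), went the other way. The deposited signal was 235, 262, 265 and 362 on the Bgn_KO arrays and 185, 208, 185 and 185 on the WT arrays. All 4 Bgn_KO arrays were above background, while in WT only replicate 2 was (detection p-value 0.00125, against 0.115 to 0.277 on the others). The log2 signal was 7.13 ± 0.47 in Bgn_KO and 5.20 ± 0.58 in WT (SD, n = 4 each), a difference of 1.93 (SE 0.31). Under the main setting Tpmt was at least 3.16-fold higher in Bgn_KO. Without background correction it differed by 0.62, and with an offset of 50 by 1.29. The gap between the groups, from 6.05 on WT replicate 2 to 6.46 on Bgn_KO replicate 1, was 0.41, narrower than for Fastkd3 or the low probes of Cdk20 (1.12) and Zfp367 (1.10).

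**Figure D1:**
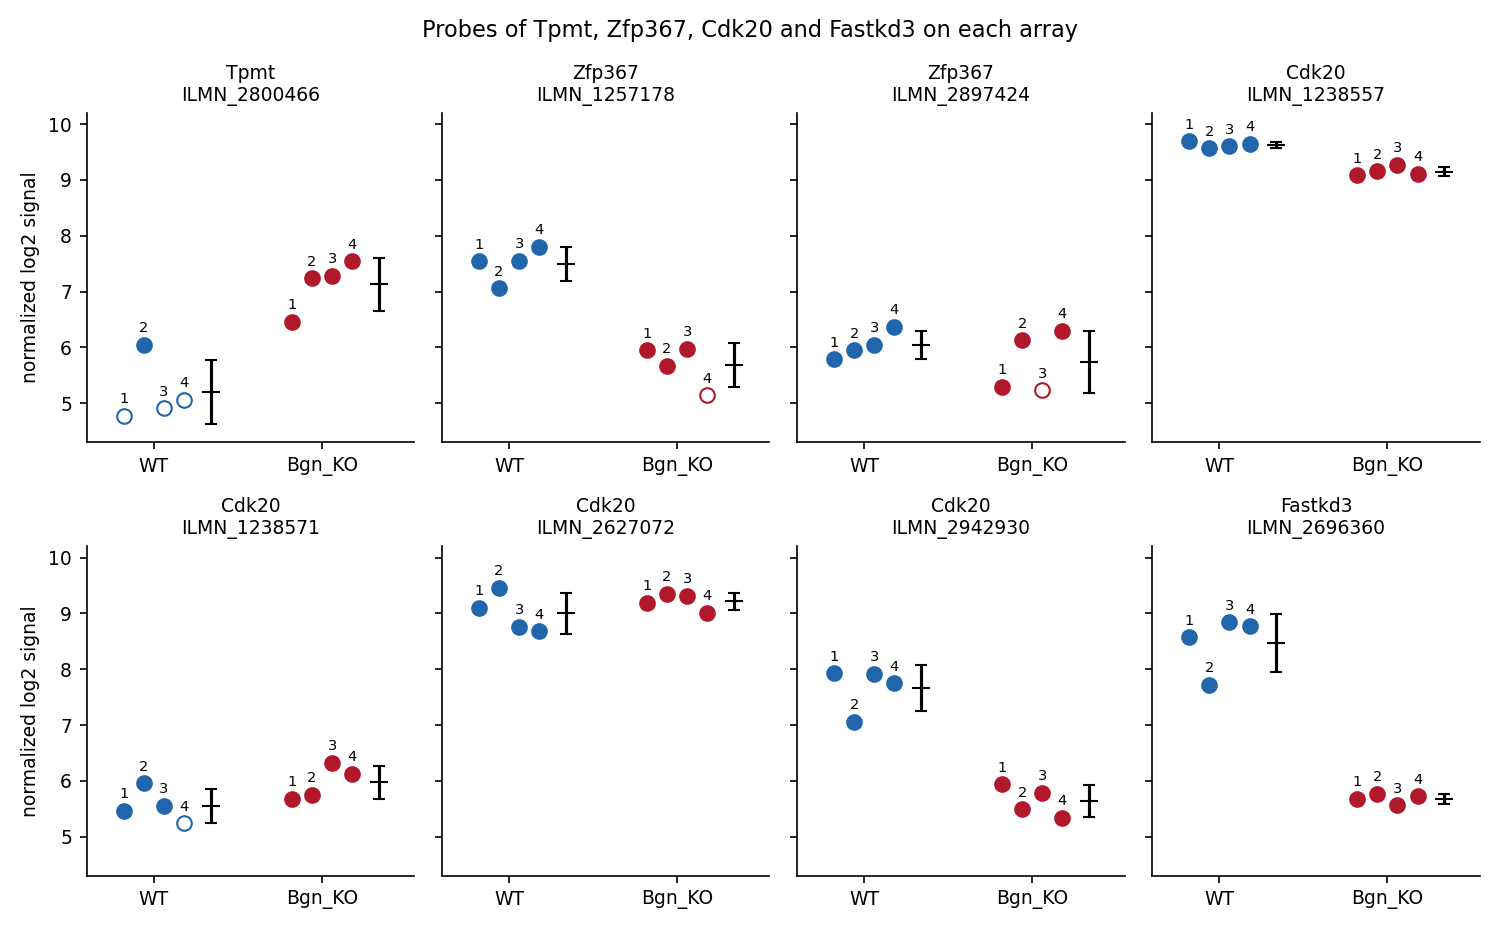
Normalized log2 signal (y axis) of the 8 probes of Tpmt, Zfp367, Cdk20 and Fastkd3 on the WT and Bgn_KO arrays; numbers give the replicate, open circles are arrays where the probe was not above background, and bars show the mean and SD of 4 arrays. WT replicate 2 is the WT array nearest to Bgn_KO for Tpmt (6.05), Zfp367 ILMN_1257178 (7.06), Cdk20 ILMN_2942930 (7.06) and Fastkd3 (7.72), while the remaining probes of Zfp367 and Cdk20 differ by -0.47 to 0.42.

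WT replicate 2 was the WT array nearest to the Bgn_KO arrays for 4 of the 4 leading probes (the probe of each gene with the largest difference). Its distance from the WT mean was 44.0% of the distance between group means for Tpmt, 29.7% for Cdk20, 27.2% for Fastkd3 and 23.6% for Zfp367. The genotype of this animal along chromosome 13 was not analysed here, so what its intermediate values stand for, and with them the WT means, is not known. On Bgn, WT replicate 2 had the highest signal of all arrays, 10.43. The array labelled WT replicate 1 had a Bgn signal in the Bgn_KO range. It read 7.93 for Cdk20, 7.54 for Zfp367, 8.57 for Fastkd3 and 4.77 for Tpmt, with the other WT arrays each time. The genes were chosen with this array counted as WT, so its place on them is no check of its label. The summed pituitary markers (Cga and Tshb detected, of 6 on the array) were high on WT replicate 2 (708) and on Bgn_KO replicate 1 (732) against 47 to 105 elsewhere. Their part was not tested.

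Deviations from the group means over the 8 arrays correlated between Tpmt and Cdk20 with r = -0.93, between Zfp367 and Cdk20 with r = 0.82 and between Tpmt and Zfp367 with r = -0.73. For Fastkd3 they were 0.71 with Cdk20, 0.49 with Zfp367 and -0.70 with Tpmt over both groups, but the groups differed. Among the WT arrays alone they were 0.94, 0.92 and -0.92 (n = 4), and among the Bgn_KO arrays alone, where Fastkd3 lay near background, -0.59, -0.54 and 0.06 (n = 4). The WT values lean on replicate 2, the nearest WT array to Bgn_KO on all 4 leading probes. On Fastkd3 it read 7.72, against 8.57, 8.84 and 8.77 on the other WT arrays. Without that array the r values were not computed, so a shared change among the other WT arrays is not shown. These are descriptions over few arrays that share 1 normalization. WT replicate 2 was also the nearest WT array for 28 of the 67 other probes past 0.05 (41.8%), for 311 of the 873 tested probes without overlap (35.6%), and for 30.4% of all 14190 tested probes.

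By signal over the 8 arrays, the probes most like the leading probe of each gene were found on several chromosomes. Such an r is of a single probe, not of a gene, and includes the difference between the groups. For Fastkd3 they were ILMN_2705460 of Ntrk2, which encodes a neurotrophin receptor (r = 0.994), the transcription factor subunit Taf12 (0.993) and Cdk20 (0.980), and the most opposed were the protease inhibitor Serpina3n (-0.985), Padi2 (-0.983) and Fank1 (-0.972). Cdk20 was most like Gpn2 (0.987), Xkr8 (0.984) and Zfp367 (0.983) and most opposed to Tpmt (-0.981), Csmd1 (-0.973) and Plekhm1 (-0.973). Zfp367 was most like Hes5 (0.990), Xkr8 (0.989) and Cdk20, and most opposed to 2 of the 3 tested probes of Exd2 (-0.993 and -0.980) and to Slc12a4 (-0.990). Tpmt was most like the glycolytic enzyme gene Pfkl (0.970), Ufsp2 (0.960) and Exd2 (0.959) and most opposed to Cdk20, Gpn2 (-0.972) and B2m (-0.967). Of these, Ntrk2, Cdk20, Zfp367 and Tpmt lie on chromosome 13 and Taf12, Padi2, Gpn2, Xkr8 and Hes5 on chromosome 4. The further tested probes of Taf12, Hes5, Ufsp2, Pfkl and B2m were not among the most like or opposed. For Taf12 the probe named differed by -2.99 (SE 0.22) between the groups, and its other probes by -0.16 (SE 0.11) and -0.42 (SE 0.15).

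Along chromosome 13 the genes fall in 2 places. In the order of the 337 genes with a tested probe, Tpmt was number 124, Zfp367 number 210, Cdk20 number 215 and Fastkd3 number 226. Zfp367 and Cdk20 had 4 such genes between them, Cdk20 and Fastkd3 had 10, and Tpmt and Zfp367 had 85. Counting all protein-coding genes, with or without a tested probe, these gaps held 4, 55 and 169 genes. Of the chromosome's 454 tested probes, 8 passed the test (limma adjusted p under 0.05), against 0.507% of all tested probes, and 5 of the 8 were probes of the 4 genes, for which they were chosen. Of the remaining 446 probes 3 passed (0.673%), a share near that of all probes. With 1 array left out the 8 became 11 without WT replicate 2, 7 without Bgn_KO replicate 1 and 5 when any 1 of the other 6 arrays was left out.

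Those 3 came from Ntrk2, number 200, and Mrps27, number 290. Ntrk2 ILMN_2705460 read 4.61, 4.73, 4.63 and 4.79 on the Bgn_KO arrays, where it was above background on none, and 7.96, 6.51, 7.77 and 7.94 on the WT arrays, at least 4.65-fold lower in Bgn_KO (limma adjusted p = 0.00279). ILMN_3061460 of the same gene was higher in Bgn_KO by 1.12 (SE 0.17, limma adjusted p = 0.0256). That call was lost when any 1 of 6 arrays was left out (limma adjusted p 0.0529 to 0.106) and without both replicates 4 (0.0906), and held without Bgn_KO replicate 1 or WT replicate 2. The third probe, ILMN_3138904, with a difference of 0.28 and no overlap, did not pass (limma adjusted p = 0.296). Ntrk2 therefore shares with Cdk20 probes that point opposite ways, and with Fastkd3 the low value on WT replicate 2. Mrps27, which encodes a protein of the mitochondrial ribosome, fell by 2.22 (SE 0.11, limma adjusted p = 3.33e-05). Without background correction Mrps27 differed by -1.10 and Ntrk2 ILMN_2705460 by -0.99, and both still passed. The WT arrays of Mrps27 read 8.21, 8.52, 8.57 and 8.52, and replicate 2 was not the nearest to Bgn_KO.

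**Figure D2:**
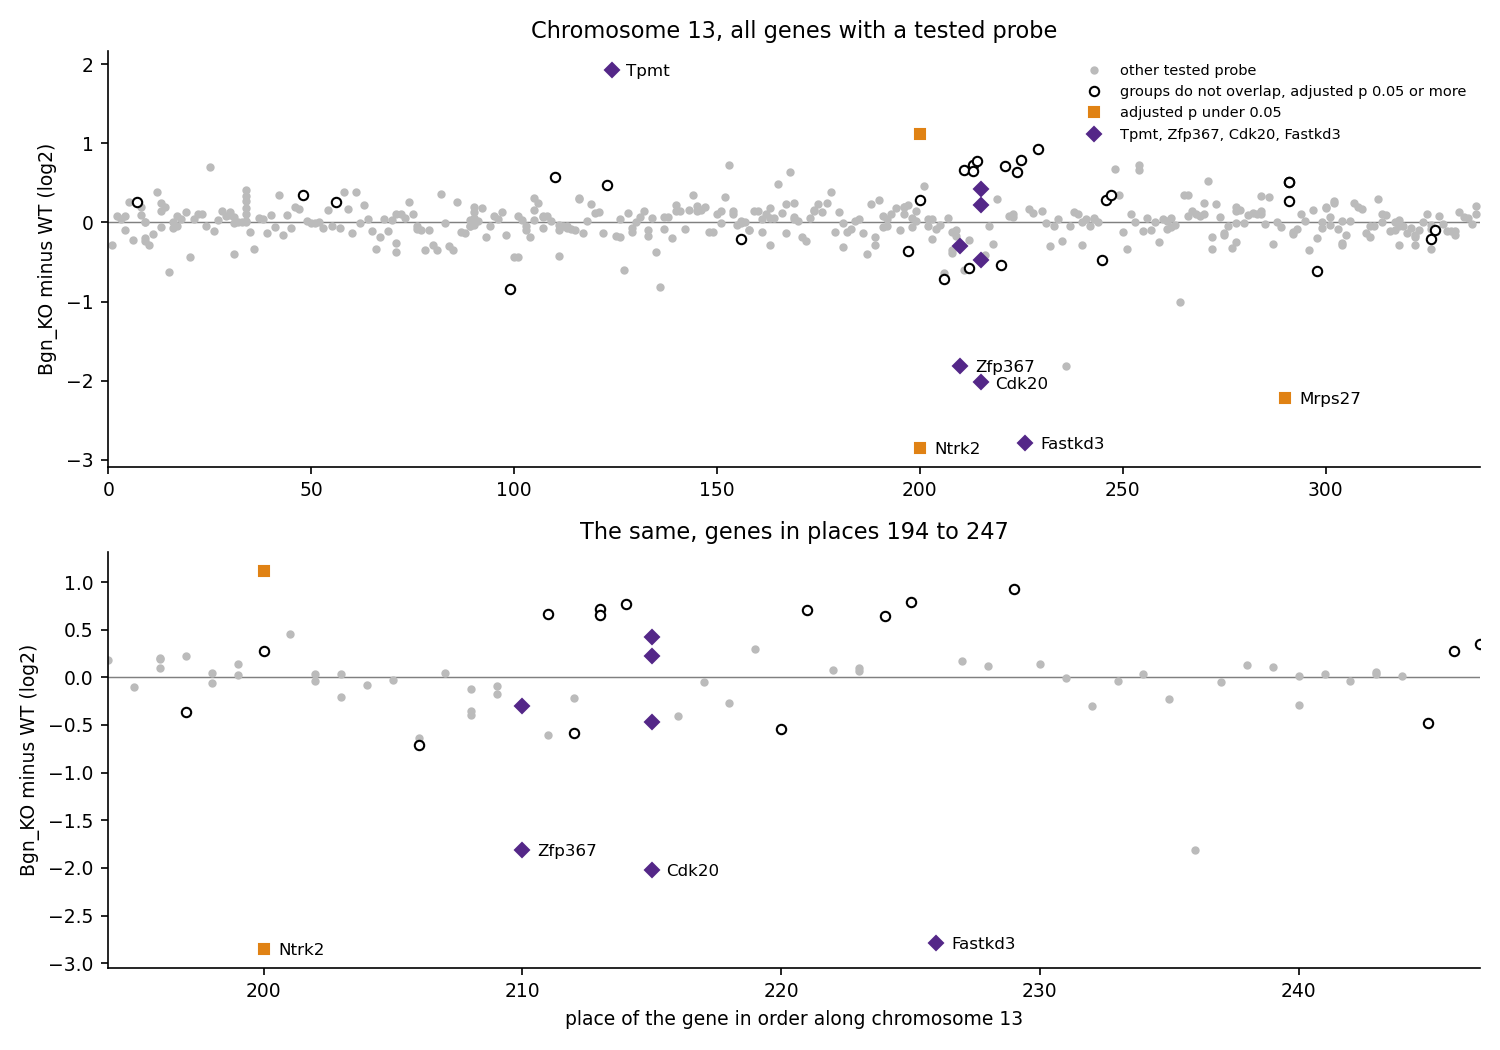
Difference between Bgn_KO and WT (y axis, log2) of each of the 454 tested chromosome 13 probes against the place of its gene in order along the chromosome (x axis); the lower panel enlarges the stretch around Zfp367, Cdk20 and Fastkd3. Diamonds are the 8 probes of the 4 genes, squares the 3 other probes past 0.05, from Ntrk2 and Mrps27, and open circles probes whose groups do not overlap, of which the lower panel shows most between Ntrk2 (number 200) and Nsun2 (number 229).

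The neighbours were taken as the 20 genes with a tested probe on each side of each of the 4, which gave 94 genes and 128 probes. Of these probes 2 passed the test (1.56%, against 0.507% of all tested probes), both of Ntrk2. Only 1 passed when any 1 of 6 arrays was left out (Bgn_KO replicates 2 to 4 and WT replicates 1, 3 and 4). Their median difference was 0.03, against 0.01 over all tested probes, with 71 higher and 57 lower. The groups did not overlap for 19 of them (14.8%), 13 higher and 6 lower in Bgn_KO, against 6.15% of all tested probes. The share was not even along the chromosome: it was 26.3% around Zfp367, 27.3% around Cdk20 and 27.1% around Fastkd3, whose neighbours are partly the same, and 3.77% around Tpmt. WT replicate 2 was the nearest WT array to Bgn_KO for 14 of the 19 (73.7%), against 35.6% of all probes without overlap. Between Zfp367 and Fastkd3, a stretch chosen after its values were seen, 9 of 18 probes were without overlap, with WT replicate 2 nearest for 8 of the 9, and 0 passed the test (limma, 11 at an unadjusted p under 0.05).

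In the order of genes with a tested probe, Fancc and Ercc6l2 lie next to Zfp367 on one side, and Habp4 and Cdc14b on the other. Fancc, a DNA repair gene of the Fanconi anaemia group, and Ercc6l2 differed by -0.39 (SE 0.19) and -0.17 (SE 0.11) with overlapping groups. Habp4, which encodes an RNA-binding protein, had a difference of 0.66 (SE 0.19) without overlap, while its other probe differed by -0.60 (SE 0.23) with overlap, and the phosphatase gene Cdc14b differed by -0.58 (SE 0.18) without overlap. None of them passed the test (limma adjusted p 0.245 to 0.630 for these probes).

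In the same order, Prxl2c and Ctsl lie before Cdk20, and Mfsd14b and Uqcrb after it, with protein-coding genes that have no tested probe between some of them. Both probes of Prxl2c were higher in Bgn_KO without overlap, with differences of 0.65 (SE 0.16) and 0.72 (SE 0.14, limma adjusted p = 0.0901). Ctsl, which encodes the lysosomal protease cathepsin L, read 6.13, 6.25, 5.88 and 5.81 on the Bgn_KO arrays and 5.06, 5.74, 5.16 and 5.04 on the WT arrays, with a measured difference of 0.77 (SE 0.17, limma adjusted p = 0.132). It was above background on 4 Bgn_KO arrays and 1 WT array, so that under the main setting it was at least 1.54-fold higher, and WT replicate 2 was again the nearest. Mfsd14b (-0.41, SE 0.16) and Uqcrb, a subunit of respiratory complex III (-0.05, SE 0.10), overlapped.

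Among genes with a tested probe, Zfp748 and Mtrr lie before Fastkd3, and Adcy2 and Tent4a after it. Mtrr, which encodes methionine synthase reductase and shares the stretch before the start of Fastkd3, went the opposite way to it. It read 6.87, 6.95, 6.81 and 6.73 on the Bgn_KO arrays and 5.94, 6.45, 5.62 and 6.21 on the WT arrays. The groups did not overlap and the difference was 0.79 (SE 0.16), which missed the threshold (limma adjusted p = 0.107). The zinc finger gene Zfp748 was also without overlap, with 8.91 to 9.08 in Bgn_KO and 8.17, 8.77, 8.26 and 8.27 on the WT arrays (difference 0.64, SE 0.13, limma adjusted p = 0.107). The adenylate cyclase gene Adcy2 (0.17, SE 0.11) and the poly(A) polymerase gene Tent4a (0.12, SE 0.08) overlapped. Without WT replicate 2, 6 neighbouring probes passed in place of 2: the 2 of Ntrk2, and Prxl2c ILMN_2647669 (0.83, limma adjusted p = 0.0397), Ctsl (0.94, 0.0235), Zfp748 (0.78, 0.01) and Mtrr (0.92, 0.0442). WT replicate 2 was the WT array nearest to Bgn_KO for each of these probes. Leaving it out widens their differences by construction, so the added calls are no further support.

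Around Tpmt only Nhlrc1, which encodes the ubiquitin ligase malin, was without overlap among the 4 nearest genes. It read 11.04, 11.07, 11.28 and 11.03 on the Bgn_KO arrays and 10.63, 10.64, 10.75 and 10.54 on the WT arrays (difference 0.47, SE 0.09, limma adjusted p = 0.0901). Nhlrc1 passed where background was left in (0.43, limma adjusted p = 0.0227) and when the authors' processed intensities were used (0.44, limma adjusted p = 0.0271). Kif13a, a kinesin (-0.13, SE 0.13), the histone demethylase gene Kdm1b (-0.17, SE 0.10) and the chromatin protein gene Dek (0.04, SE 0.15, and -0.03 with median scaling) overlapped.

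**Figure D3:**
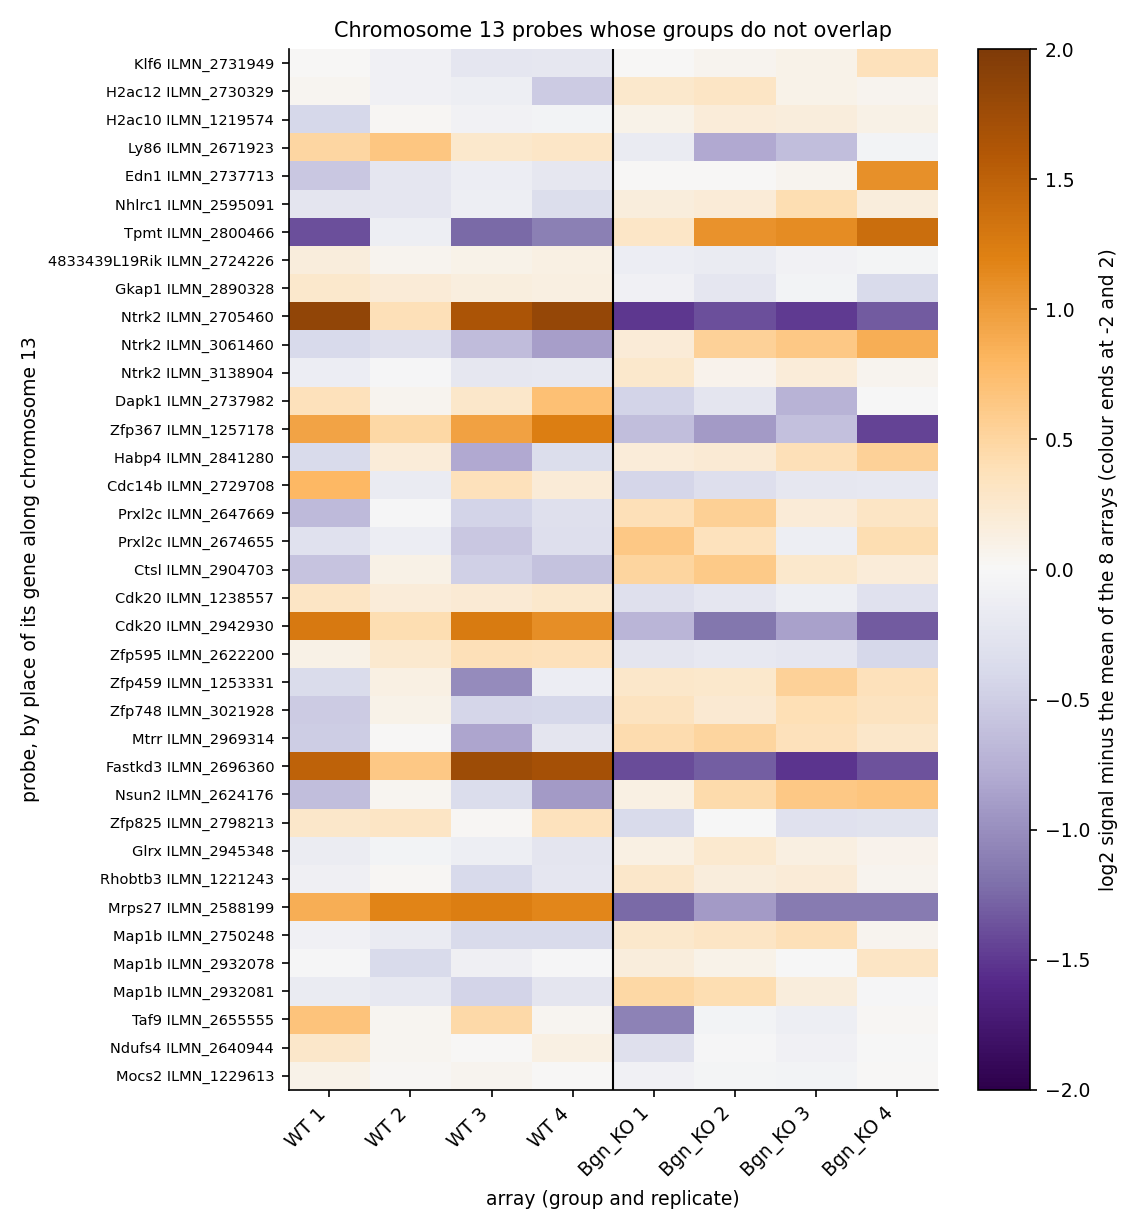
Log2 signal of the 37 tested chromosome 13 probes whose groups do not overlap, minus the mean of the 8 arrays (colour), with probes in gene order from top to bottom and arrays as columns. In the rows of Ntrk2 ILMN_2705460, Zfp367, Cdk20 ILMN_2942930 and Fastkd3 the WT replicate 2 column is paler than the other WT columns, as in the row of Tpmt, while in the row of Mrps27 it is not.

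Other genes of the processes these 4 take part in did not pass the test. Over 7 lists, 79 of 129 listed genes had a tested probe, and 0 of their brightest probes passed (limma, against 0.501% of the brightest probes of all genes). At an unadjusted p under 0.05 there were 5 (6.33%), against 1442 of 14190 tested probes. Their differences ranged from -0.42 to 0.45 and 44 were higher and 35 lower, with a median of 0.02.

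In the FASTK family, Tbrg4 (0.11, SE 0.12), Fastkd5 (-0.03, SE 0.10) and Fastk (0.03, SE 0.10, and -0.06 with median scaling) overlapped between the groups. By these brightest probes 2 of 4 tested genes were higher, but a second probe of Tbrg4 differed by -0.31 (SE 0.16) and a second probe of Fastk by -0.19 (SE 0.13). Among 21 genes of mitochondrial transcription and RNA processing 11 were higher, with the pseudouridine synthase gene Trub2 at 0.45 (SE 0.13, limma adjusted p = 0.250), the transcription factor gene Tfb2m at 0.26 (SE 0.09) and Hsd17b10, a part of mitochondrial RNase P, at -0.24 (SE 0.10). Among 12 cyclin-dependent kinase genes and their activating partners 9 were higher. Cdk3 differed by 0.42 (SE 0.20), Cdk13 by 0.14 (SE 0.10) and Cdk2 by -0.14 (SE 0.10).

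Of 11 genes of the cilium and of hedgehog signalling 6 were higher, with the cilium motor subunit Kif3a at 0.26 (SE 0.10, limma adjusted p = 0.436), Tulp3 at 0.26 (SE 0.17) and the kinase Mok at 0.15 (SE 0.12, and -0.06 on its second probe). Of 13 genes of S phase and proliferation 6 were higher, with cyclin E2, Ccne2, at 0.42 (SE 0.22), Cdc45 at -0.18 (SE 0.14) and the helicase subunit Mcm4 at 0.11 (SE 0.11). Of 10 genes of thiopurine handling and purine salvage 4 were higher, with adenosine deaminase, Ada, at -0.30 (SE 0.14), the phosphorylase Pnp at -0.23 (SE 0.16) and the oxidase Xdh at -0.42 (SE 0.36). Of 8 small molecule methyltransferases and genes of the S-adenosylmethionine cycle 6 were higher, with Ahcy, which hydrolyses the product that methyltransferases leave, at 0.26 (SE 0.11), Pemt at 0.24 (SE 0.14) and Pnmt at 0.29 (SE 0.18). Several of these probes were near background, so their differences are rough: Ada was detected on 1 Bgn_KO array and 3 WT arrays, Cdk3 on 4 and 2, Ccne2 on 4 and 3, Xdh on 3 and 4, and Pnmt on 3 and 3.

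The size of the 4 leading differences depended on the background correction and their direction did not, in the settings tried. The genes were chosen for these differences and the groups do not overlap on these probes. An unchanged direction was thus largely fixed in advance and is no support for the differences. Without background correction Fastkd3 differed by -1.28, Cdk20 by -0.79, Zfp367 by -0.67 and Tpmt by 0.62. In the authors' processed values they differed by -1.31, -0.81, -0.69 and 0.64. With 1 array left out at a time the differences ranged from -3.05 to -2.66 for Fastkd3, from -2.23 to -1.92 for Cdk20, from -1.95 to -1.62 for Zfp367 and from 1.77 to 2.22 for Tpmt. Without both replicates 4, the arrays with cortical and muscle transcripts, they were -2.69, -1.89, -1.52 and 1.74.

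**Figure D4:**
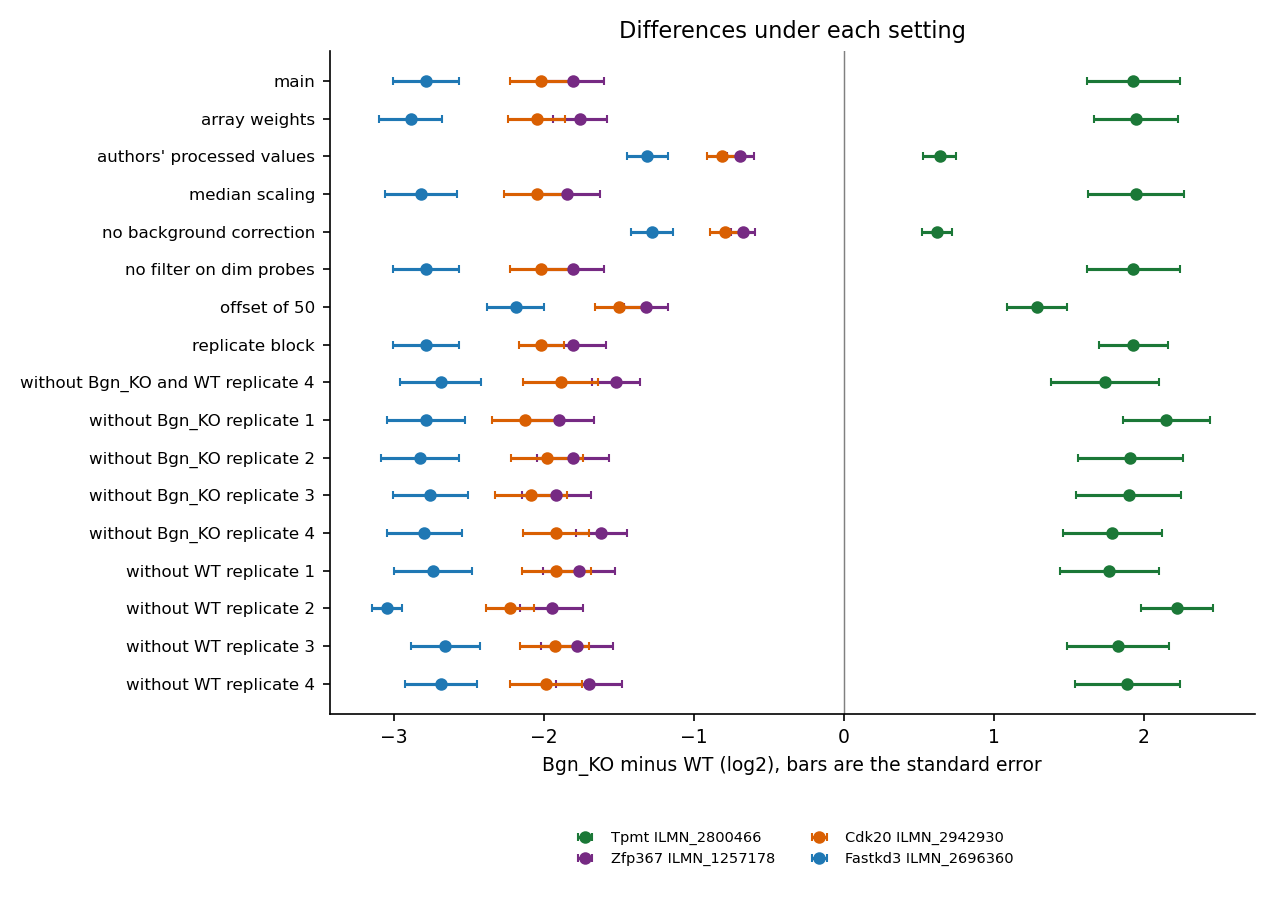
Difference between Bgn_KO and WT (x axis, log2, with its standard error) of the leading probe of each of the 4 genes under the main setting (top line) and each alternative (lines below). Fastkd3, Cdk20 and Zfp367 stay below 0 and Tpmt above it on every line, and the points move toward 0 without background correction, in the authors' processed values and with an offset of 50. The genes were chosen for these differences, so an unchanged side of 0 is no support for them.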

How the data were processed

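Per the file headers, the authors deposited signal intensities before normalization and, next to each, a detection p-value. The authors also deposited processed intensities. The submitters' processing notes name lumi 2.10.0 and R 2.15.0, and the sources used here do not state the normalization. These values keep the rank order of the signal on every array.

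A letter in each sample description linked columns to samples. Limma 3.58.1 (R 4.3.3) inferred the background from the detection p-values, removed it by normexp with an offset of 16, and quantile normalized the log2 values. Probes below the detection threshold of 0.05 on 4 or more of the 8 arrays, 14190 in all, entered a linear model of Bgn_KO minus WT with moderated variances. Adjustment was by Benjamini-Hochberg over all of them (threshold 0.05). The fit was tested on simulated data.

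Probes were named by the platform table (23978 with 1 symbol, 0 with several, 1719 not listed) and placed through their Entrez IDs (23962 matched) in GRCm38.p6, used for names and gene order. The array files name no genome build. Of 212 listed symbols 1, Tmt1a, was not matched.

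The 4 genes and the lists were chosen with earlier results of these data known. Named besides are Bgn, chromosome 13 probes past 0.05, and the 2 nearest genes with a tested probe on each side. So are up to 3 genes per list by smallest p, and the 3 most like and 3 most opposed probes of each leading probe. A gene or probe named outside this rule was chosen after its values were seen. These are Nsun2 and the further probes of Ntrk2, Habp4, Prxl2c, Taf12, Tbrg4, Fastk and Mok. Alternatives were other background handling, scaling, filters, array weights, a replicate block and arrays left out.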

Additional observations from a re-analysis of the deposited data

Results flagged for a closer look

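Among 64 probes named or described, the lowest or highest array of a group lay far from the other 3 in 9 of 128 groups, by Dixon's ratio at the 95% level. Chance flags about 1 in 20 groups. Of these, 4 were WT replicate 2: Ntrk2 ILMN_2705460 (6.51, the others 7.77 to 7.96), Zfp748 (8.77, the others 8.17 to 8.27), Uqcrb (11.94, the others 12.13 to 12.16) and, off chromosome 13, Pfkl (12.00, the others 11.77 to 11.78). Mrps27 was low on the array labelled WT replicate 1 (8.21, the others 8.52 to 8.57) and Pemt high on WT replicate 3 (7.21, the others 6.67 to 6.73). On the Bgn_KO side Nhlrc1 was high on replicate 3 (11.28, the others 11.03 to 11.07), Tulp3 high on replicate 1 (6.53, the others 6.16 to 6.22) and Ccne2 low on replicate 4 (5.35, the others 5.95 to 6.01). For the 8 probes of Cdk20, Zfp367, Fastkd3 and Tpmt no array passed that ratio.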

How the results depend on the processing

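The number of probes past 0.05 was 72, and it was 116 with array weights, 47 among probes detected at 0.01 on all arrays, 43 without both replicates 4 and 43 to 76 with 1 array left out (44 without WT replicate 3 and 43 without WT replicate 4). On chromosome 13 it was 8, and 3 among probes detected at 0.01 on all arrays, where the leading probes of the 4 genes are not tested, 5 without both replicates 4 and 5 to 11 with 1 array left out, 5 for each array other than Bgn_KO replicate 1 and WT replicate 2. Among neighbours it was 2, and 3 without background correction and in the authors' processed values, 5 with array weights, 1 among probes detected at 0.01 on all arrays, 1 without both replicates 4 and 1 to 6 with 1 array left out, the highest without WT replicate 2 and 1 when any 1 of Bgn_KO replicates 2, 3 and 4 and WT replicates 1, 3 and 4 was left out. With the replicate number as a replicate block the counts were 26, 4 and 1, and since the numbers do not pair the arrays (deviations of same-numbered arrays correlated with r from -0.19 to 0.10, and 1 of 4 numbers correlated best with itself) a call lost there is not read as a weaker effect. The lists kept 0 probes past 0.05 under all 17 alternatives. Differences of the 4 genes moved by more than the spread between arrays in these settings: in the authors' processed values they were 0.64 (Tpmt), -0.69 (Zfp367 ILMN_1257178), -0.38 (Cdk20 ILMN_1238557), 0.11 (Cdk20 ILMN_1238571), -0.81 (Cdk20 ILMN_2942930) and -1.31 (Fastkd3), and without background correction 0.62, -0.67, -0.38, 0.11, -0.79 and -1.28. With an offset of 50 Tpmt was at 1.29, Zfp367 at -1.32, Cdk20 ILMN_2942930 at -1.50 and Fastkd3 at -2.19, and with median scaling Cdk20 ILMN_1238557 at -0.55. A larger offset or uncorrected background pulls dim values together by construction. The difference of Bgn ranged from -1.11 to -0.58 and passed under none (limma adjusted p 0.0883 to 0.614). Signs turned only for values near 0 among named genes: Dek (median scaling -0.03, without both replicates 4 -0.03, 1 array left out -0.05 to 0.14), Uqcrb (without both replicates 4 0.01, against -0.11 without WT replicate 2), Fastkd5 (array weights 0.02, 1 array left out -0.11 to 0.01) and Fastk (array weights -0.0033, median scaling -0.06, 1 array left out -0.03 to 0.09), and the cause was not tested. Dim probes limit what can be said: the Bgn_KO levels of Fastkd3, Cdk20 ILMN_2942930 and Zfp367 and the WT level of Tpmt lie at or near background.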
